A study of Mus musculus with 5 samples.

Results

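The 10 enzymes of sterol and fatty acid synthesis Hmgcs1, Fdps, Idi1, Sqle, Ebp, Acat2, Fads2, Scd1, Acly and Acaca, chosen by name, were compared between NIH3T3 fibroblasts carrying the human ERBB2 (HER-2/NEU) receptor gene under a cytomegalovirus promoter and the parental NIH3T3 line. NIH3T3 is an immortalised mouse fibroblast line, and ERBB2 is a receptor tyrosine kinase. Both lines were grown in the same serum-containing medium, and the labels do not say whether the transfected line was 1 clone. Their RNA was hybridised together on 5 two-colour cDNA arrays, of which 3 came from preparation A (A1, A2 and A3) and 2 from preparation B (B1 and B2). Erbb2-transfected cells were labelled with Cy5 on A3 and B2 and with Cy3 on A1, A2 and B1. The labels do not tell whether A and B were grown as separate cultures. For the comparison of the lines, p-values rest on how these 2 preparations differ, which may be technical, and on variance shared across features. For dye and preparation effects, and for fits to the 5 arrays as separate values, spread between arrays of a preparation counts as error.

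Of the 10 genes, 8 had a probe listed under their symbol alone, with 1 probe each, among 20205 probes and 9669 such genes on the array. Sqle, which epoxidises squalene, and Acat2, the cytosolic thiolase at the head of the sterol branch, had none listed and were not analysed here. Another 2 probes list Scd1 together with a further gene and were not used. The 8 probes gave 23 values in all. A1 held values for 2 of them, A2 for 5, A3 for 2, B1 for 8 and B2 for 6. All values are on the log2 scale, with Erbb2-transfected cells over NIH3T3 cells, so that a negative value is a lower level in Erbb2-transfected cells. This direction takes Cy5 as the numerator of the deposited ratio and is likely rather than settled, and under the other reading every sign turns. The labels do not state the base of the logarithm, and folds assume base 2.

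Cells build cholesterol and fatty acids from the same precursor, acetyl-CoA. In the sterol branch acetyl-CoA is condensed to HMG-CoA and mevalonate, mevalonate is converted to isoprenoid diphosphates, and these are joined to squalene, which is closed into a ring and trimmed to cholesterol. In the fatty acid branch acetyl-CoA is carboxylated, the chain is assembled, and desaturases then place double bonds in it. Many genes of both branches are activated by the SREBP transcription factors, which are released from the endoplasmic reticulum when sterol is scarce.

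Fads2 and Ebp were both lower in Erbb2-transfected cells, by 2.18-fold and 2.13-fold, and were below 0 on each of the 4 arrays that measured them. Fads2 is the desaturase that starts the conversion of essential fatty acids to longer polyunsaturated ones, and Ebp is a sterol isomerase late in cholesterol synthesis. The enzymes of the middle of the sterol branch, Idi1 and Fdps, were far below 0 on B1 but near 0 on B2, where the dyes were exchanged. Scd1 lay above 0 on both arrays that measured it. Acly had values of both signs.

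The promoter windows of 4 of these genes are shown because the sterol branch is known to share control by SREBP with NF-Y and Sp1. They were taken from RefSeq (GRCm38.p6), are 300 bases long with the last 50 downstream of the annotated start, and are written on the strand of the gene. Of the 10 genes, 7 had a window in that table. Both strands were searched for the sterol regulatory element core TCACNCCAC, the CCAAT box (ATTGG or CCAAT), the GC box (GGGCGG or CCGCCC) and the E-box CACGTG, and matches stand in capitals. No match overlapped another. Hmgcs1 is shown for its sterol element (chr13:119690101-119690400, plus strand), Idi1 as another gene of the mevalonate part (chr13:8885356-8885655, plus strand), and Ebp (chrX:8193463-8193762, minus strand) and Fads2 (chr19:10101454-10101753, minus strand) as the genes that fell.
Hmgcs1: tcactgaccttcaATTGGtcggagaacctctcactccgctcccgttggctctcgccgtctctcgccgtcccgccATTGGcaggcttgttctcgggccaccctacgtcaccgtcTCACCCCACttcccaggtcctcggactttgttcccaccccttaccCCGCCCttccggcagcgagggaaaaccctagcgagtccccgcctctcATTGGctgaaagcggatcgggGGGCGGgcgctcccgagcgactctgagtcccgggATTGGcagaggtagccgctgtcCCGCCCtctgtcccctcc
Idi1: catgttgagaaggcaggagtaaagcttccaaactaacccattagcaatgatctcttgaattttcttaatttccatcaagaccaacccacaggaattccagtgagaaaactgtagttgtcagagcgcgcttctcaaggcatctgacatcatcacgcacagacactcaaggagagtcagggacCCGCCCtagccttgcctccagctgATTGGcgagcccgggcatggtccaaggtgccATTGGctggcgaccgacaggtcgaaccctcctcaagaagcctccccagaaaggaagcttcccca
Ebp: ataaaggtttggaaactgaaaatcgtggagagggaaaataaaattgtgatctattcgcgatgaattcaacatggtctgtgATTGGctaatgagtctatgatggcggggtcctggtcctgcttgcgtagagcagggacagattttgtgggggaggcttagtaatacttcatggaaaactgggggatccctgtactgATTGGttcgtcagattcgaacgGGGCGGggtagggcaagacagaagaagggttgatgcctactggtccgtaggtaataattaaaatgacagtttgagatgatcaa
Fads2: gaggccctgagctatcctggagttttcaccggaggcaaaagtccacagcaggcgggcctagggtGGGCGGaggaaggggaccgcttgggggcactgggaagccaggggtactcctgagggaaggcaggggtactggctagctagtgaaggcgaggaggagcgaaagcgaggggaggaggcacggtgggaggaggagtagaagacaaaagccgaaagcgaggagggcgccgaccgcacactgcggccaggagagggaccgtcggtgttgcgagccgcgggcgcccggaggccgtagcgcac

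Hmgcs1 was the 1 gene of the 7 whose window held the sterol element core, at 137 bases before the start, against 1.24% of 32851 windows of all genes. The CCAAT box was found in 4 of the 7 (Hmgcs1, Idi1, Ebp and Acly), against 37.4% of all windows, with 4 matches in Hmgcs1 and 2 each in Idi1 and Ebp. The GC box was found in 6 of the 7, against 35.7% of all windows, and Acaca was the exception. Its window had the lowest share of G and C of the 7, at 39.7%. That window follows an annotated start that was not checked and may not be a promoter. The lack of motifs at Acaca is therefore not read as a result. The E-box was in 0 of the 7, against 7.15% of all windows. The windows of Ebp and Fads2 share a GC box and no other of these motifs. A match is a run of letters only, and binding was not measured.

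**Figure D1:**
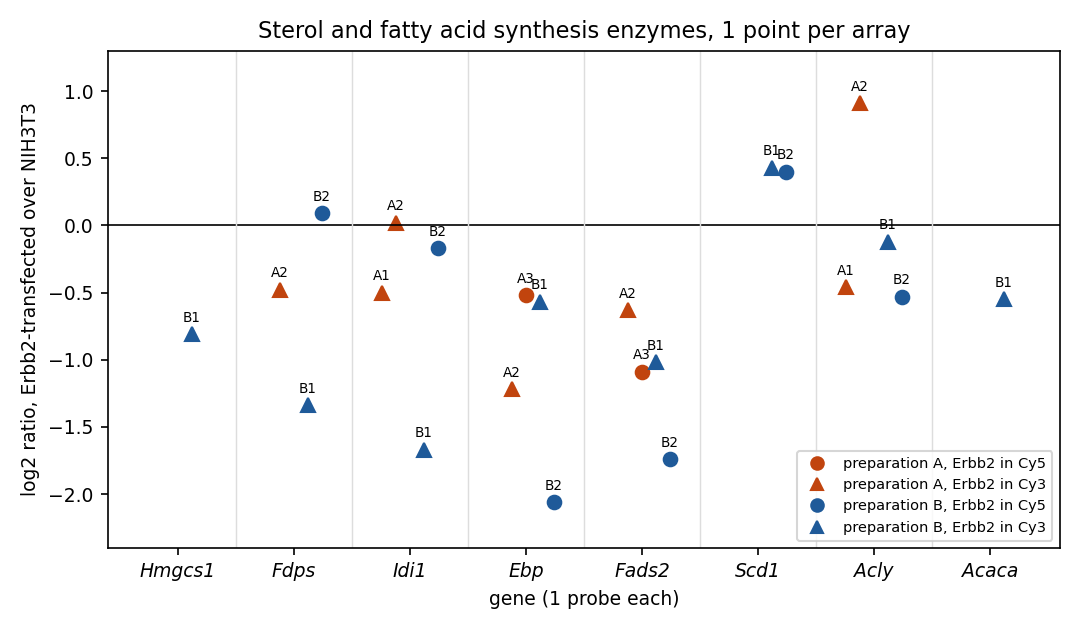
Log2 ratio of Erbb2-transfected over NIH3T3 cells (vertical axis) for the 8 measured enzymes (horizontal axis), 1 point per array, with colour for the preparation and shape for the dye carried by Erbb2-transfected cells. Fads2 and Ebp lie below 0 on 4 of 4 arrays, Scd1 above 0 on 2 of 2, and Idi1 and Fdps far lower on B1 than on B2.

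In the fatty acid branch, Fads2 had log2 ratios of -0.63 on A2, -1.09 on A3, -1.02 on B1 and -1.74 on B2. These values stood low among all probes of each array, with 14.4%, 6.14%, 2.07% and 1.55% of probes lower. The preparations averaged -0.86 (A) and -1.38 (B), and their mean was -1.12 ± 0.37 (SD, n = 2). The 95% interval of limma ran from -1.60 to -0.64 (adjusted p = 0.0111). Fads2 was low in both preparations and with both dyes, with means of -1.42 with Erbb2-transfected cells in Cy5 and -0.83 with them in Cy3. Without array A3 it stood at -1.01 and no longer passed (adjusted p = 0.0822).

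Scd1, the desaturase that makes monounsaturated from saturated fatty acids, was measured in preparation B alone. It had 0.40 on B2 and 0.43 on B1, so that its dye orientations lay close together, with 76.3% and 82.9% of the probes of those arrays lower. Acly, which cleaves citrate to supply cytosolic acetyl-CoA, had -0.46 on A1, 0.91 on A2, -0.12 on B1 and -0.53 on B2. A1 and A2 carry the same preparation in the same dye orientation, and Acly was on opposite sides of 0 on them. Acaca, the acetyl-CoA carboxylase that makes malonyl-CoA, had -0.55 on B1 alone. None of these 3 genes had values in both dye orientations of both preparations, and so none entered the test.

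In the sterol branch, Ebp had -1.22 on A2, -0.52 on A3, -0.57 on B1 and -2.06 on B2. All 4 values were below 0, but within each preparation the arrays lay further apart than for Fads2. On B2 only 0.854% of probes were lower, against 10.3% on B1. The preparations averaged -0.87 (A) and -1.31 (B), with a mean of -1.09 ± 0.31 (SD, n = 2), a 95% interval from -1.56 to -0.62 and an adjusted p of 0.0112 in limma. Dye orientations were averaged first, so their spread is not part of this SD. Without array B2 the value of Ebp was -0.72 and did not pass (adjusted p = 0.117).

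Idi1, which interconverts the 2 isoprenoid building blocks, had -0.50 on A1, 0.02 on A2, -1.67 on B1 and -0.17 on B2. B1 was thus the low array, where 0.498% of probes were lower, against 39.5% on B2. For Fdps, which joins these building blocks to farnesyl diphosphate, A2 gave -0.48, B1 gave -1.34 and B2 gave 0.09, again with B1 lowest. Hmgcs1, the HMG-CoA synthase, had -0.81 on B1 alone. The means of the preparations were -0.58 for Idi1 and -0.55 for Fdps, and neither gene entered the test, since neither had a value on A3. When every feature with a value in both preparations was tested, neither passed (adjusted p = 0.322 for Idi1 and 0.299 for Fdps), and neither did Acly (adjusted p = 0.942), but the calls of Fads2 and Ebp were also lost there (adjusted p = 0.0774 and 0.0782). When features with a value on at least 3 arrays were tested over the 5 arrays, Fads2 and Ebp passed (adjusted p = 0.00738 and 0.0262), and Fdps, Idi1 and Acly did not (adjusted p = 0.438, 0.443 and 0.736).

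Both tested enzymes, Fads2 and Ebp, passed at an adjusted p under 0.05, 0 rose and 2 fell, against 4.54% of all 4892 tested features that fell and 6.79% that passed in either direction. With 2 tested genes, chosen with these results known, nothing is read from that share. Their 2 values are lower than those of all but 2.19% (Fads2) and 2.41% (Ebp) of tested features. No difference between the preparations passed for them: A minus B was 0.52 with a standard error of 0.41 for Fads2 (adjusted p = 0.909, limma) and 0.44 with a standard error of 0.50 for Ebp (adjusted p = 0.961, limma). The other 6 measured enzymes could not be tested in this way. Counted over genes, 4 of the 8 had only values below 0, 1 had only values above 0 and 3 had both signs. Among all features with a value, 4154 of 17137 had only values below 0. Hmgcs1 and Acaca count among the 4 with a single value each.

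**Figure D2:**
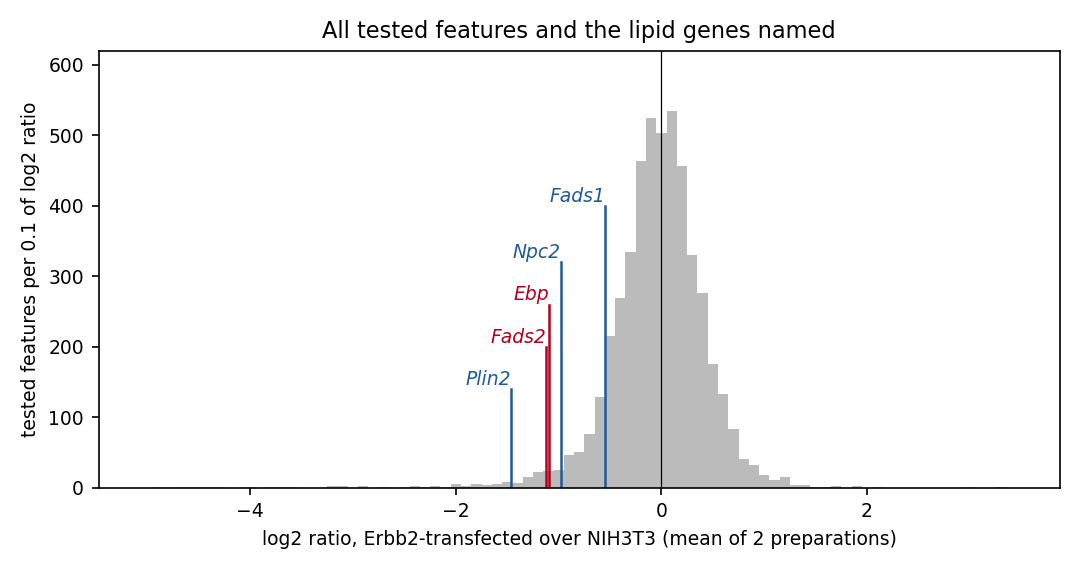
Number of tested features (vertical axis) per 0.1 of log2 ratio of Erbb2-transfected over NIH3T3 cells (horizontal axis, mean of 2 preparations) for 4892 features, with lines at the enzymes Fads2 and Ebp (red) and at Plin2, Npc2 and Fads1 (blue). Line heights have no meaning. Fads2 at -1.12 and Ebp at -1.09 lie in the lower tail, between Plin2 at -1.46 and Npc2 at -0.98.

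In preparation B several sterol genes differed between B1 and B2, which carry opposite dye orientations. Each orientation was a single array there, so dye and array cannot be told apart. Of the 10 genes of sterol synthesis with a value on both B2 and B1 (Fdps, Idi1, Ebp and 7 others), 8 were lower on B1, where Erbb2-transfected cells carried Cy3, and 2930 of 6216 genes were so over the whole array. The median of these 10 genes was 0.01 on B2 and -0.43 on B1. For 3 of the 8 the arrays were nearly equal, with Fdft1 at -0.07 on B2 and -0.08 on B1, Tm7sf2 at -0.27 and -0.29, and Dhcr7 at -0.13 and -0.16. Of the 6 enzymes described above with both arrays, including those of the fatty acid branch, 2 were lower on B1. Besides Idi1 and Fdps, Cyp51, the lanosterol demethylase, had 0.21 on B2 and -0.91 on B1 as means of its pair of probes. Its probe measured on every array was below 0 on both, at -0.35 on B2 and -1.37 on B1. Mvd, the mevalonate diphosphate decarboxylase, had 0.09 on B2 and -0.72 on B1, and Pmvk, the phosphomevalonate kinase, 0.89 and -0.28. In preparation A, 5 of 7 such genes were lower on A2 than on A3, against 1443 of 3422 genes over the whole array. The medians of these 7 ran the other way, at -0.34 on A3 and -0.19 on A2. In preparation B Ebp ran opposite to the 8 genes, with -2.06 on B2 and -0.57 on B1. In preparation A it was among the 5, with -1.22 on A2 and -0.52 on A3. This grouping was made after the values were seen and was not tested as a group. Idi1, Fdps, Mvd and Pmvk had no value on A3 and did not enter the dye test. For Cyp51 no dye effect passed in limma (adjusted p = 0.38, unadjusted p = 0.0459). Nor did one for Fdft1, Tm7sf2 or Dhcr7 (adjusted p = 0.788, 0.868 and 0.92, unadjusted p from 0.476 to 0.755, limma). None passed for Fads2 (adjusted p = 0.576) or Ebp (adjusted p = 0.786) either, but both were lower on B2, so their tests do not bear on the pattern of preparation B.

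**Figure D3:**
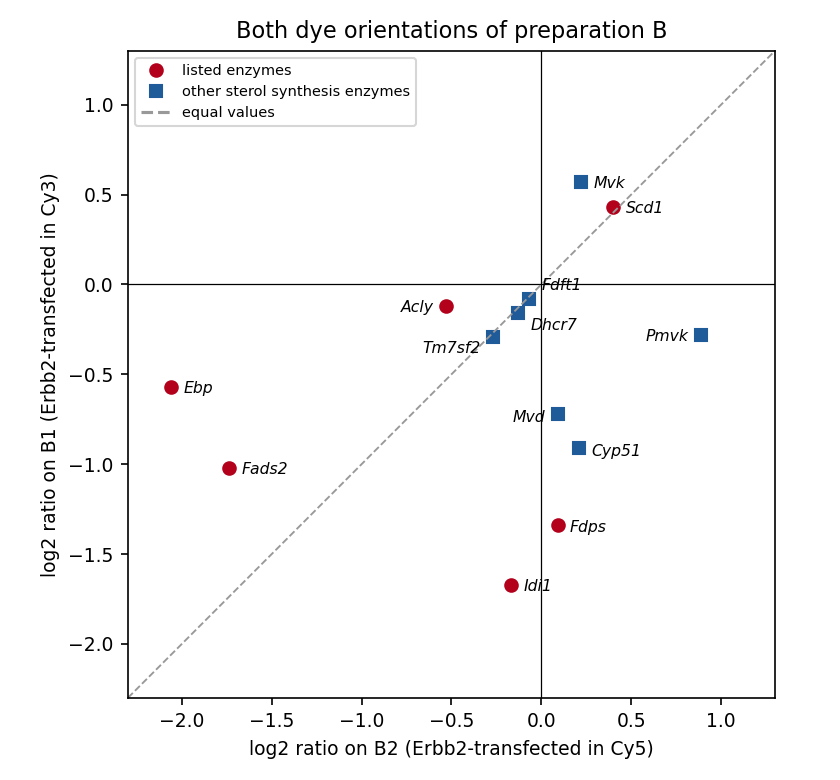
Log2 ratio of Erbb2-transfected over NIH3T3 cells on B2 (horizontal axis, Erbb2-transfected cells in Cy5) and on B1 (vertical axis, Erbb2-transfected cells in Cy3) for the enzymes described (red circles) and other sterol synthesis enzymes (blue squares) with a value on both arrays, with a dashed line of equal values. Idi1, Fdps, Cyp51 and Mvd lie below the line, and Ebp and Fads2 above it.

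Of the other sterol synthesis enzymes, 10 of 18 had a value and 5 were tested. None rose or fell, and their median was -0.24, against -0.02 over all tested features. Cyp51 had -0.47 ± 0.16 and Fdft1, the squalene synthase, -0.31 ± 0.33, while Mvk, the mevalonate kinase, had 0.43 ± 0.05 (SD, n = 2 each; adjusted p = 0.206, 0.432 and 0.239). Fdft1 was below 0 on all 5 arrays, at -0.73, -0.67 and -0.38 in preparation A and -0.08 and -0.07 in preparation B. Cyp51 has a pair of probes, and the one measured on every array had -0.74, -0.89, -0.34, -1.37 and -0.35 on A1, A2, A3, B1 and B2. When only probes measured in both orientations of both preparations were used, Cyp51 passed at -0.72 (adjusted p = 0.0247).

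Among other enzymes of fatty acid synthesis, elongation and desaturation, 15 of 27 had a value and 8 were tested, with 0 rising, 0 falling and a median of -0.09. Fads1, the partner desaturase of Fads2, was below 0 on all 5 arrays, from -1.11 on B2 to -0.02 on A2, with a mean of -0.55 ± 0.12 (SD, n = 2) that did not pass (adjusted p = 0.143). Its 3 probes did not lie together, and on B1 they had 0.52, -0.67 and -0.31. Hsd17b12, an enzyme of chain elongation, had 0.64 ± 0.04 (SD, n = 2; adjusted p = 0.0863), and passed when the 5 arrays were taken as separate values (adjusted p = 0.0455). For Fasn, the fatty acid synthase, the 3 arrays of preparation A gave 1.62, 1.70 and 0.81, against 0.19 and -0.79 for the 2 of preparation B. For Fasn A minus B was 1.52 with a standard error of 0.37 (adjusted p = 0.311, limma), so that the difference did not pass.

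Of the regulators of these branches, 12 of 20 had a value and 5 were tested, with 0 rising, 0 falling and a median of -0.16. Srebf2, which encodes the SREBP that acts mainly on sterol genes, had -0.57 ± 0.19 (SD, n = 2; adjusted p = 0.13), and its pair of probes disagreed on A1, at -1.19 and 1.19. Without A1 it passed at -0.71 (adjusted p = 0.0465). Mlxipl, which encodes the sugar-responsive factor ChREBP, had 1.36, 1.87 and 1.15 in preparation A and -0.46 and 0.09 in preparation B. As for Fasn, the difference between preparations did not pass, with A minus B of 1.64 and a standard error of 0.40 (adjusted p = 0.311, limma). For Mlxipl this difference partly compares probes, since A1 and A2 had a value for only one probe of its pair and B1 only for the other. Rxra, a nuclear receptor, had -0.28 and did not pass (adjusted p = 0.456).

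**Figure D4:**
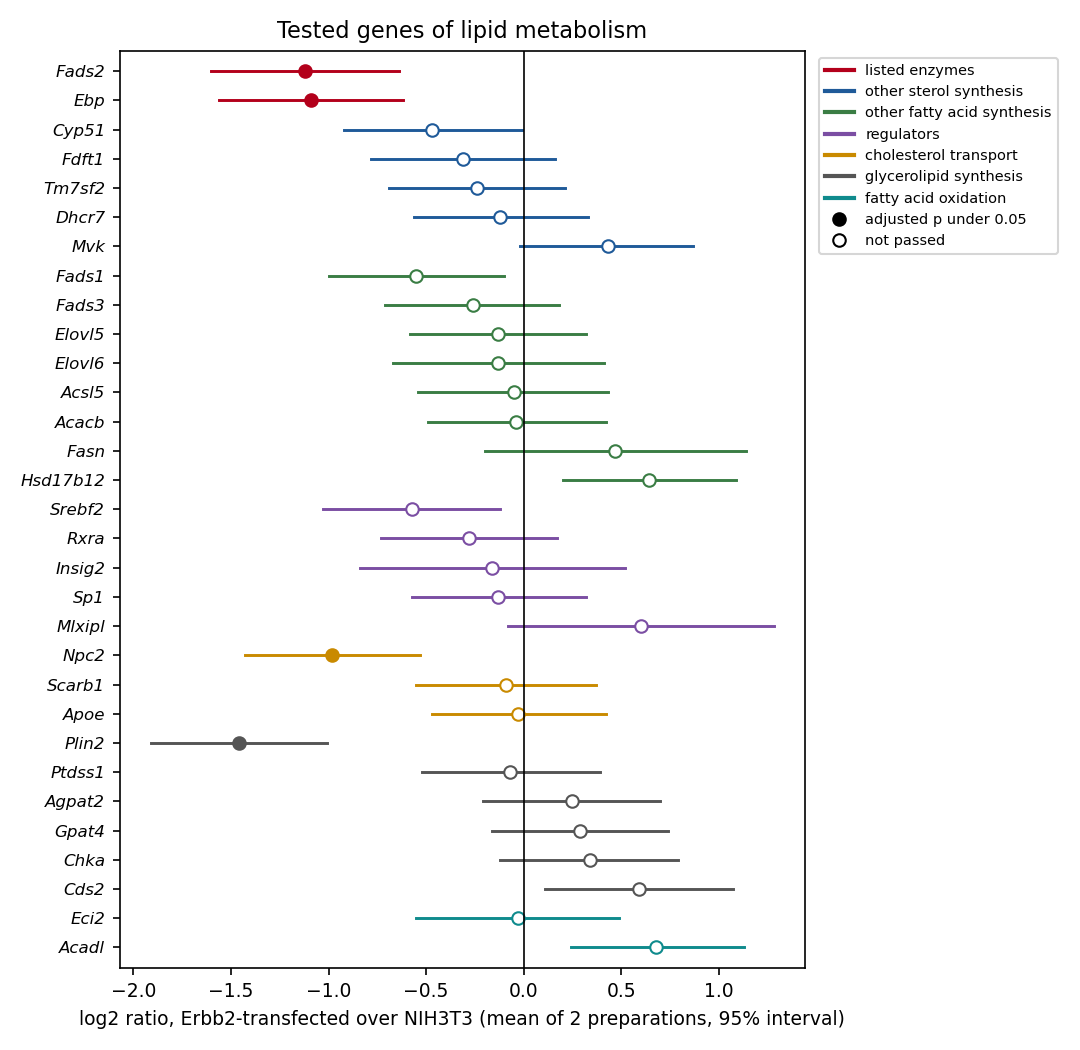
Log2 ratio of Erbb2-transfected over NIH3T3 cells with its 95% interval (horizontal axis, mean of 2 preparations, limma) for every tested gene of the lipid lists (vertical axis), coloured by list and filled where the adjusted p over all features was under 0.05. Fads2, Ebp, Npc2 and Plin2 are filled, all below 0.

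In the lists of glycerolipid and phospholipid synthesis, cholesterol transport and fatty acid oxidation, which do not hold every gene of their pathways, 2 genes fell. Plin2, which coats lipid droplets, had -1.60, -1.38 and -1.44 in preparation A and -0.87 and -2.04 in preparation B. It was below 0 on all 5 arrays, with a mean of -1.46 ± 0.01 (SD, n = 2; adjusted p = 0.00151), and was the 1 of 6 tested genes on the list of glycerolipid and phospholipid synthesis that changed. The median of those 6 was 0.27, with Cds2 at 0.59 (adjusted p = 0.14) and Chka, a choline kinase, at 0.34 (adjusted p = 0.363). Npc2, which carries cholesterol out of lysosomes, was below 0 on all 5 arrays, from -1.37 on A1 to -0.58 on A2, with a mean of -0.98 ± 0.10 (SD, n = 2; adjusted p = 0.0159). It was the 1 of 3 tested genes of cholesterol uptake, trafficking and efflux that changed, beside Scarb1 at -0.09 and Apoe at -0.03 (median -0.09). Npc2 no longer passed without A3 (-0.94, adjusted p = 0.0841) or without B2 (-0.89, adjusted p = 0.057), and 1 of its 3 probes lay at 0.02 on A2 and -0.24 on B1. Of the 2 tested genes on the list of fatty acid oxidation, 0 passed (median 0.33). Acadl, an acyl-CoA dehydrogenase, was above 0 on all 5 arrays, from 0.50 to 0.87, with a mean of 0.68 ± 0.06 (SD, n = 2; adjusted p = 0.0707), and Eci2, an enoyl-CoA isomerase, had -0.03. Acadl passed in 5 alternatives, among them the 5 arrays taken as separate values (adjusted p = 0.0275) and the fit without A1 (adjusted p = 0.0449). Acox2, a peroxisomal acyl-CoA oxidase that is not on the list and was added after its value was seen, fell by 2.25 on the log2 scale (SD 0.26, n = 2; adjusted p = 7.44e-05).

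Ratios give no level, so the presence of the fibroblast markers themselves could not be checked. Of 8 fibroblast markers, 5 were tested and 3 fell, namely Col1a1, Col1a2 and Fn1, at -4.93, -3.97 and -4.61. Vim, a filament of mesenchymal cells, was above 0 on all 5 arrays at 0.47 and did not pass. Of the markers of adipocytes, epithelium and liver, 1 each was tested and 0 passed, with Cebpa at -0.22, Krt19 at 0.19 and Alb at 0.11, and no macrophage marker was tested. The human ERBB2 transcript was not analysed here.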

How the data were processed

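Per the labels, mean spot intensities from a GenePix 4000A scan were background-subtracted by the authors and normalised to a median ratio of 1. The deposited values were taken as log2 ratios of Cy5 over Cy3, per the labels' order of channels; log base, numerator and the rule for empty values are not given in the sources used here. Values were deposited for 26.6% (A1) to 86.4% (B1) of probes. Ratios of A1, A2 and B1 were sign-turned, after which arrays correlated at r from 0.17 to 0.54 across probes. Probes with 1 gene symbol in the platform annotation (11723 of 20205) were averaged to genes and the others kept singly.

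Arrays of 1 preparation were taken to share their RNA extracts, so orientations were averaged within each preparation, and the mean of A and B was tested for a difference from 0 in limma 3.58.1 (lmFit, eBayes; R 4.3.3) over the 4892 features with values in both orientations of both preparations, with p-values adjusted by Benjamini-Hochberg and called under 0.05. Of these, 222 were lower and 110 higher. The variance rests on 10.2 prior degrees of freedom against 1 residual one. Dye and preparation effects were tested with limma on the 5 arrays. The procedure was checked on simulated data, and the outcome is not reported here. The number of arrays limits the precision.

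Genes and lists were chosen with earlier results of these data known. All 10 enzymes, every list gene past the threshold and the 3 largest values among the tested genes of each list are named (untested genes with larger values are not), and Mvd, Pmvk, Vim, Tm7sf2, Dhcr7 and Acox2 were chosen after their values were seen. Genes with patterns most like the enzymes were not sought, since 0 enzymes had values on all 5 arrays. Alternatives covered replication unit, missing values, probe summary, normalization, variance, threshold, numerator and leaving out arrays. Figures used matplotlib 3.10.9.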

Additional observations from a re-analysis of the deposited data

Results flagged for a closer look

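Among 27 named genes measured on 4 or 5 arrays, 2 had a single array far from the rest, which happens by chance in about 5% of such genes. Cds2, which makes a phospholipid precursor and did not pass the test, had 1.34 on B2 against 0.25 to 0.39 on A2, A3 and B1. These arrays did not average the same probes of Cds2. The value on B2 was the mean of probes at 0.47 and 2.22, and the higher of them had 0.86 on A3 and no value on A2 or B1. For Fn1 the single array was A2, at -4.01, while its remaining arrays lay between -4.72 and -4.61. These are means of a pair of probes that differed, with -5.08 and -4.14 on A1 and -3.60 and -4.42 on A2. On the second probe alone A2 was not the highest array. None of the 10 enzymes met this criterion, and no difference between preparations passed for a named gene.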

How the results depend on the processing

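Under Cy3 as the numerator every sign turned, giving 1.12 for Fads2, 1.09 for Ebp, 1.46 for Plin2, 0.98 for Npc2, 4.93 for Col1a1, 3.97 for Col1a2 and 4.61 for Fn1. Fads2 and Ebp were below 0 in all the other alternatives that tested them. They passed in 15 of 19 settings each, with the comparison as reported counted among the 19. Many of these could not move their values, since each gene had 1 probe and no value on A1. Under the probe summaries, the plain mean, the fits with a dye term, the variance trend and without A1 they stayed at -1.12 and -1.09. The 15 of 19 is therefore not a measure of robustness. Without array A2 neither had a value in the test. They missed the threshold when arrays were scaled to equal spread (-1.17 and -1.10, adjusted p = 0.0577 each), when features with a value in both preparations entered (-1.12 and -1.09) at a threshold of 0.01 (-1.12 and -1.09), and without 1 array each (A3 for Fads2, B2 for Ebp). Leaving out an array moved Fads2 between -1.30 and -0.94 and Ebp between -1.46 and -0.72.

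Of all features, 332 passed in the comparison of cell lines. This count was 509 with the preparation as a random block, 149 for features measured in both preparations, 558 for those on at least 3 arrays, 544 by probe, 564 for complete probes, 124 after scaling, 193 after quantile normalization, 196 with a robust variance trend, 120 at 0.01, and 198 to 498 without 1 array. Lower calls outnumbered higher ones except with Cy3 as the numerator, at 222 and 110 in the comparison as reported, 94 and 30 after scaling, 170 and 41 without B1, 113 and 85 without B2, and 336 and 228 for complete probes. The dye effect, with 7 features, had 15 on at least 3 arrays, 12 by probe, 11 for complete probes, 4 at 0.01 and 1 to 27 without 1 array. The difference between preparations, with 1 feature, had 3 with the median over probes, 6 after centring and 1 to 25 without 1 array. The causes were not tested. Fdps, Idi1 and Acly could be tested under the 2 looser rules on missing values and without A3, and passed in none of these (adjusted p from 0.299 to 0.959). Hmgcs1, Scd1 and Acaca were tested in no alternative.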
